A study of Bos taurus with 61 samples.

Results

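The ovary and the uterus of prepubertal Brangus heifers were compared gene by gene. Of the 24616 genes measured, the 15634 that reached a mean of 0.2 RPKM in the ovary, the uterus or both were compared. RPKM is the number of reads of a gene per kilobase of its exons, scaled to the mapped reads of the library, so levels of different genes can be set side by side. The rule that chose the genes used a level in either tissue and not the difference between them. A gene that passed through a single tissue is higher in that tissue by the choice itself.

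The samples were 4 ovaries and 4 uteri of PRE heifers, which are young female cattle of a Brahman and Angus composite breed that had low blood progesterone and no corpus luteum, among 61 libraries of 8 tissues. The animal numbers of the labels show that the same 4 heifers gave both organs. Each PRE ovary sample was tissue with antral follicles, and the uterus sample was uterine horn taken on the side of the larger ovary. Endometrium of 3 PRE heifers, and ovaries and uteri of 4 other heifers after puberty (POST), with antral follicles and a corpus luteum in the ovary, were used for comparison. The labels name no drug or hormone treatment and no age.

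Each value is a mean that the authors formed over a group's libraries. No value of a single heifer was used here, so the spread among heifers is not known, 1 library could carry a mean, and no test or p-value is given. A gene is called higher in a tissue where log2(RPKM + 0.2) differed by at least 2, which is 4-fold. All differences are given as ovary minus uterus on that log2 scale, so that a positive value means a higher level in the ovary, and the added 0.2 understates the difference of genes near 0.

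The ovary is a gonad. Its follicles hold an oocyte surrounded by granulosa cells, which respond to follicle-stimulating hormone and make estradiol and inhibin, and by theca cells, which respond to luteinizing hormone and make androgens. The uterus develops from the Mullerian duct under the control of HOX and other homeobox genes, and consists of a lumen and glands lined by epithelium, a stroma and an outer wall of smooth muscle.

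Most genes differed little between the organs. Of the 15634 genes, 12509 (80.0%) lay within 2-fold, 473 (3.03%) were called higher in the ovary and 481 (3.08%) higher in the uterus, together 6.1%. The median difference of all compared genes was 0.07, and 8634 of them had the higher level in the ovary. A difference of at least 4 on the log2 scale was reached by 93 genes in favor of the ovary and 79 in favor of the uterus. The ovary alone reached 0.2 RPKM for 591 genes and the uterus alone for 580. The most abundant transcript was shared: EEF1A1, which encodes a translation elongation factor, stood at 7290 RPKM in the ovary and 10230 RPKM in the uterus. Pearson's r across the compared genes was 0.895 on the log2 scale, as a description over genes, which are not replicates.

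**Figure D1:**
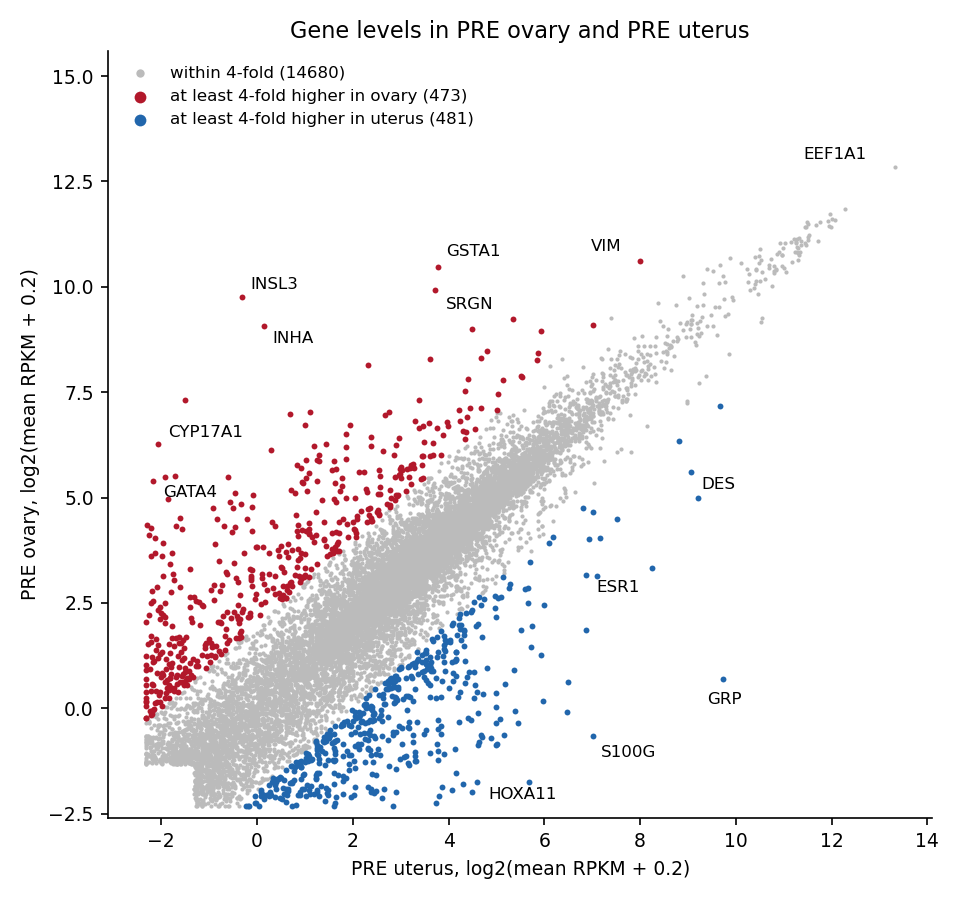
Mean level of each of the 15634 compared genes in PRE uterus (horizontal axis) and PRE ovary (vertical axis), both as log2(mean RPKM + 0.2). Each point is a gene, the 473 red and 481 blue points lie at least 4-fold apart, and INSL3, INHA and GRP lie farthest from the diagonal among the named genes.

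The summed mean unique reads were 20440401 for the PRE ovary and 19703322 for the PRE uterus, so that both organs were read to a like depth. The mean read counts of these groups multiply to whole reads over the 4 libraries, and ratios of these reads, each as a share of its group's total, are given with a 95% exact binomial interval, which covers counting error only. The lower bound of that ratio exceeded 1 for 471 of the 473 ovary genes and 480 of the 481 uterus genes. These genes were chosen for a difference in the same libraries, so the counts follow largely from the choice and are a description. The read counts and the RPKM values were not always in proportion. The ratio of reads was under 4 for 63 of the ovary genes and 26 of the uterus genes, and it went the other way for 1 uterus gene. In the PRE ovary and uterus, the pituitary hormone genes PRL (106 and 65.8 RPKM) and GH1 (30.4 and 30.9 RPKM) stood beside PRE liver levels of 59.9 and 27.3 RPKM. The POST ovary mean went against its label in part: PRL stood at 15910 RPKM, GH1 at 11450 RPKM and CGA, the common subunit of the gonadotropins, at 2079 RPKM, which are 9.47%, 21.7% and 46.7% of the POST pituitary means. Counts of genes again 4-fold apart in POST are therefore given with and without genes at 5 RPKM or more in POST pituitary. Other POST ovary values are given as they stand, with such genes included.

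Genes of granulosa cells were among the largest differences. Of 20 listed genes, 17 were found by name and 15 were compared, of which 10 were higher in the ovary and 0 in the uterus. Their median difference was 4.13, beside 0.07 for all compared genes. In a bulk tissue, fewer cells of a type and less RNA per cell cannot be told apart, and this holds for every list that follows.

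INHA, the inhibin subunit that all inhibins share, stood at 537 RPKM in the ovary and 0.908 RPKM in the uterus. It lies on chromosome 2 at 108226858 to 108229830 of UMD3.1, and its share of reads was 271 times higher in the ovary (237 to 313). INHBA and INHBB, the other inhibin and activin subunits, stood at 131 and 43.9 RPKM in the ovary against 1.95 and 1.83 RPKM in the uterus. Follistatin (FST), which binds activin, was as clearly ovarian, at 282 against 4.80 RPKM. The receptor for follicle-stimulating hormone, FSHR, had 16.3 RPKM in the ovary and 0.028 RPKM in the uterus, while its 9679 and 214 reads gave a ratio of 43.6 (38.1 to 50.2). CYP19A1, the aromatase that makes estrogens, had 17.2 and 0.0091 RPKM. All of these are known from the growing follicle.

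FOXL2, a transcription factor that maintains granulosa cell identity, had 20.3 RPKM in the ovary and 1.62 RPKM in the uterus, a smaller difference of 3.49. The nuclear receptor NR5A2 differed by 4.88 and N-cadherin (CDH2) by 4.13. BEX2 differed by 3.94. Not all granulosa genes were restricted to the ovary. KITLG, the kit ligand, had 16.9 and 7.61 RPKM, the gap junction gene GJA1 had 158 and 85.6 RPKM, and the estrogen receptor ESR2 had 5.40 and 4.23 RPKM, so that these 3 lay within 4-fold. AMHR2 and FOXO1, at differences of 1.57 and 1.19, were also not called.

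The theca and steroid synthesis genes included the largest difference of all. Of 16 listed genes, 15 were compared, 9 were higher in the ovary and 0 in the uterus, with a median of 2.94. INSL3, a peptide hormone of theca cells that acts on the receptor RXFP2, stood at 868 RPKM in the ovary and 0.607 RPKM in the uterus, a difference of 10.07. Its 63633 ovarian reads against 55 uterine reads gave a ratio of 1115 (857 to 1481). INSL3 lies on chromosome 7 at 5252672 to 5254252 of UMD3.1.

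The enzymes of the steroid pathway can be followed from cholesterol to androgen. SCARB1, which takes up cholesterol from lipoproteins, had 110 RPKM in the ovary and 15.3 RPKM in the uterus, although its reads differed only 3.88-fold (3.78 to 3.98). STAR, which carries cholesterol into mitochondria, had 35.2 and 3.11 RPKM, and CYP11A1, which cuts its side chain, had 127 and 1.41 RPKM. HSD3B1 had 69.5 and 1.03 RPKM. CYP17A1, needed for androgens, had 77.5 and 0.037 RPKM, with 8699 reads in the ovary and 6 in the uterus. The differences were 2.83 for SCARB1, 3.42 for STAR, 6.30 for CYP11A1, 5.83 for HSD3B1 and 8.36 for CYP17A1.

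The electron donors of these enzymes were less restricted. FDXR was called at 2.94, while FDX1 (0.90) and POR (1.15) were not. LHCGR, the receptor for luteinizing hormone, had 15.0 and 0.058 RPKM. GLI1, SRD5A1 and AKR1C3 were within 4-fold, and AKR1C3 had the higher level in the uterus, at 1.16 against 0.381 RPKM. Genes that make cholesterol did not follow the steroid enzymes: of 13 compared members of the cholesterol list, the 1 called was SCARB1, and the median was 0.08. HMGCS1, an early enzyme of cholesterol synthesis, had 30.6 RPKM in the ovary and 28.5 RPKM in the uterus.

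Gonadal transcription factors split into ovarian and shared genes. Of 13 compared, 5 were higher in the ovary and 0 in the uterus, and the median was 0.98. GATA4, a zinc finger factor of gonadal somatic cells, had 42.0 RPKM in the ovary and 0.022 RPKM in the uterus, and lies on chromosome 8 at 7478856 to 7527262. NR5A1, the nuclear receptor that activates steroidogenic genes, had 45.4 and 0.105 RPKM. LHX9, a LIM homeobox factor needed for gonad formation in mouse, had 11.99 and 0.016 RPKM. TCF21 was the fifth, after FOXL2, with 79.4 and 11.03 RPKM.

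WT1, which acts in both gonad and mesothelium, stood at 31.9 RPKM in the ovary and 31.0 RPKM in the uterus. TCF23 (24.4 and 27.9 RPKM) and NR2F2 (84.7 and 46.3 RPKM) were likewise present in both organs. Of this list, GATA4 and NR5A1 lay farthest apart between the organs. GATA2, a factor of the same family as GATA4, had the opposite order, at 3.05 RPKM in the ovary and 25.9 RPKM in the uterus. GATA5 had 3.83 and 0.065 RPKM, and both were chosen after their values were seen.

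Most oocyte genes were low in the ovary, and the share of oocytes in the samples was not measured. Of 38 listed genes, 32 were found and 24 reached 0.2 RPKM, of which 5 were called higher in the ovary, 0 in the uterus, and the median was 1.23. Members that passed the filter through the ovary only, such as ZP2, ZP3 and ZP4, could have no uterine call. The 0 and the median therefore follow in part from the filter. The zona pellucida genes ZP3, ZP2 and ZP4, which encode the egg coat, stood at 1.97, 1.54 and 0.649 RPKM in the ovary and at 0.025, 0.055 and 0 RPKM in the uterus. ZP3 had 241 reads in the ovary and 12 in the uterus, a ratio of 19.4 (10.9 to 38.0). Low levels limited the rest of the list. GDF9 and BMP15, growth factors of the oocyte, had 0.429 and 0.812 RPKM in the ovary and were not called, with read ratios of 2.49 (1.62 to 3.90) and 3.69 (2.59 to 5.36).

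FIGLA, which switches on zona pellucida genes, DAZL, MOS and ZAR1 were between 0.32 and 0.41 RPKM in the ovary and at or under 0.02 RPKM in the uterus. Their differences lay between 1.38 (ZAR1 and MOS) and 1.599 (FIGLA), and the added 0.2 kept them under the threshold. FIGLA had 26 reads in the ovary but 12 in the uterus, although its uterine RPKM was 0. With 0.05 added in place of 0.2, 14 oocyte genes were called, and with 1 added, 1 was called. UCHL1, a deubiquitinating enzyme of oocytes and neurons, had the largest difference of the list (91.5 against 3.42 RPKM), and its highest PRE mean was in the hypothalamus. GTSF1, at 1.601 against 0.155 RPKM, was the fifth gene called. LHX8 stood just outside the filter at 0.199 RPKM in the ovary, and DOK7, a gene of no list, just inside at 0.2 RPKM.

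Meiosis genes gave no call in either direction among 6 compared members (median 0.17). Of all compared genes 6.1% were called, so 0 calls among 6 genes is no result about the list. Of 22 listed genes, 15 were found, and 9 of these were under 0.2 RPKM in both organs. SYCP3, of the synaptonemal complex, had 3.44 RPKM in the ovary and 6.06 RPKM in the uterus. In heifers the oocytes had entered meiotic arrest before birth, as is known for cattle, and a link to these values was not tested.

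**Figure D2:**
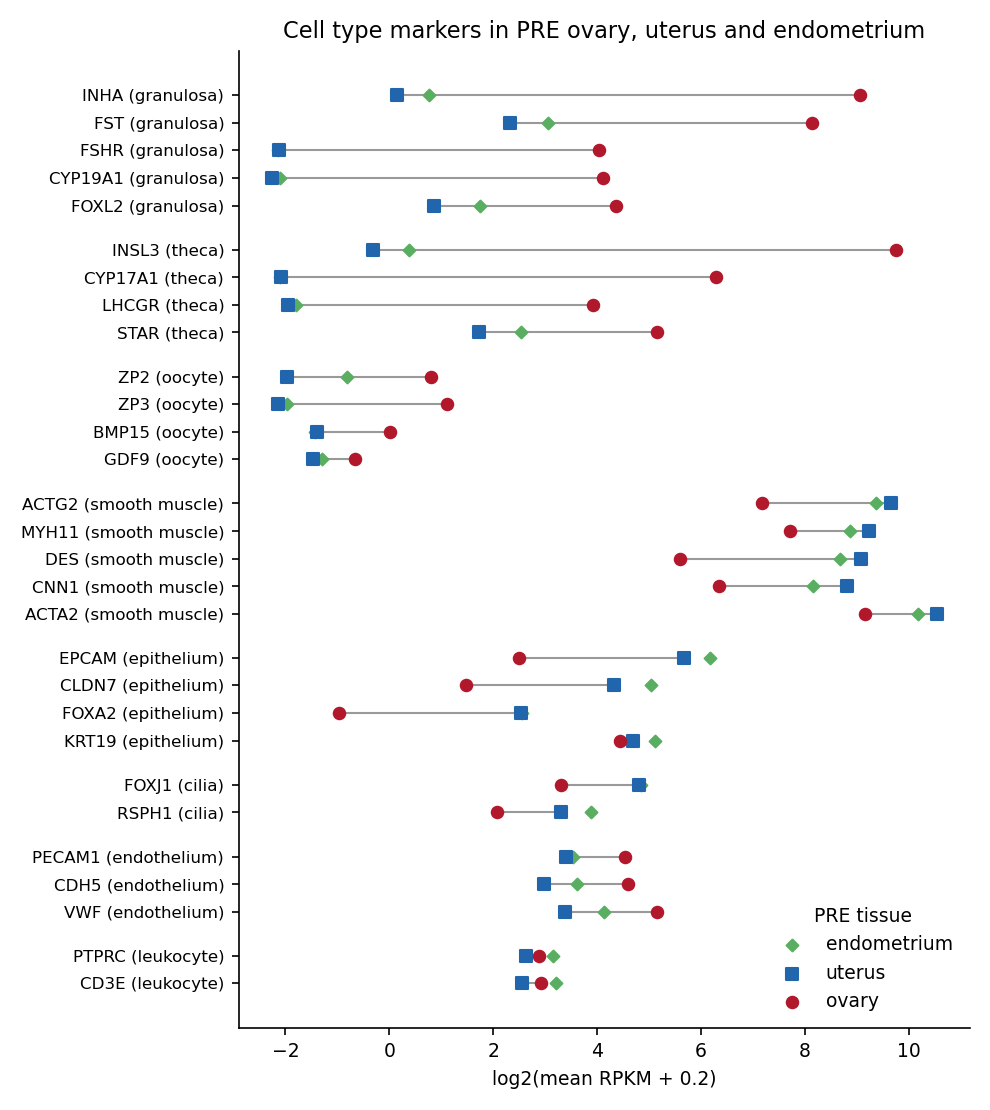
Levels of marker genes of 8 cell types in PRE ovary (red circles), PRE uterus (blue squares) and PRE endometrium (green diamonds), as log2(mean RPKM + 0.2), with a line from the ovary to the uterus value of each gene. Granulosa and theca markers lie at the ovary end by the widest gaps, smooth muscle and epithelial markers lie higher in uterus, and PTPRC and CD3E are close together.

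Beyond the lists, several of the largest ovarian differences were in genes with other roles. GSTA1, a glutathione transferase, was the most abundant of them at 1427 RPKM in the ovary and 13.5 RPKM in the uterus. The gene family has close copies, between which the counting could split reads, and GSTA2 (7.52 and 3.84 RPKM), GSTA3 (2.20 and 1.36 RPKM) and GSTA4 (57.1 and 35.3 RPKM) lay within 2-fold. SRGN, the proteoglycan of secretory granules, had 966 and 13.03 RPKM. CARTPT, a peptide that in cattle is made by granulosa cells and lowers their estradiol output, had 159 and 0.154 RPKM, from 13347 and 11 reads. OTOS (44.7 and 0.063 RPKM), SERPINB2 (20.1 and 0.0043 RPKM) and KRT2 (19.2 and 0.017 RPKM) were also nearly restricted to the ovary of the pair. For PLA2G1B the measures differed: its RPKM values of 22.7 and 0.128 gave 6.13, but its reads of 708 and 260 gave a ratio of 2.63 (2.27 to 3.04).

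Single genes of striated muscle proteins stood on both sides. TNNI3, cardiac troponin I, had 106 RPKM in the ovary and 1.82 RPKM in the uterus, and its highest PRE mean was in the ovary. CSRP3, a muscle LIM protein, had 28.8 and 0.593 RPKM, with its highest mean in muscle. Both were chosen after their values were seen. SMPX, a small muscle protein that was among the 15 largest uterine differences, had 24.3 RPKM in the uterus and 0.345 RPKM in the ovary, and its highest PRE mean was in muscle too. Muscle products on the list of other sampled tissues gave like levels in both organs, such as ACTA1 with 22.2 and 14.7 RPKM and MYH1 with 10.4 and 7.05 RPKM.

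On the uterine side the first gene was GRP, the gastrin-releasing peptide. It stood at 856 RPKM in the uterus and 1.42 RPKM in the ovary, a difference of -9.04, and at 2036 RPKM in PRE endometrium. Its 60193 uterine reads stood against 106 in the ovary. GRP lies on chromosome 24 at 58710084 to 58722719 of UMD3.1. Its receptor GRPR was low in both organs, at 0.306 RPKM in the uterus and 0.071 RPKM in the ovary. The related peptide NMB had the opposite order in these heifers, at 130 RPKM in the ovary and 6.53 RPKM in the uterus.

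S100G, a calcium-binding protein that handles calcium in epithelia, had 129 RPKM in the uterus and 0.433 RPKM in the ovary (a difference of -7.67). Its highest PRE mean was in fat, at 389 RPKM. The phospholipase PLA2G10 had 88.4 and 0.739 RPKM, and MPTX had 22.4 and 0.051 RPKM. FOLR1, a folate receptor, had 16.7 and 0.062 RPKM. PRSS16, with 2829 uterine and 3 ovarian reads, had 13.1 and 0.012 RPKM. All of these were in the endometrium too, with PLA2G10 at 74.4, MPTX at 20.5, FOLR1 at 13.3 and PRSS16 at 9.81 RPKM.

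The transcription factors that pattern the reproductive tract formed the list with the lowest median, -3.39. Of 25 listed genes, 17 were compared, 12 were higher in the uterus and 0 in the ovary. HOXA11 and HOXA10, which pattern the uterus, stood at 24.1 and 35.8 RPKM in the uterus and at 0.095 and 0.445 RPKM in the ovary. HOXD10 and HOXD11 had 31.8 and 13.6 RPKM in the uterus against 0.581 and 0.224 RPKM in the ovary. MSX1, at 62.8 against 0.934 RPKM, and MSX2, at 11.98 against 0.276 RPKM, are homeobox factors of uterine epithelium and stroma. With the uterus given first, HAND2 (17.5 and 1.49 RPKM) acts in the stroma, and PAX2 (9.60 and 0.284 RPKM) and EMX2 (34.0 and 6.02 RPKM) in the duct epithelium. PAX8, at 8.81 and 3.28 RPKM, was not called.

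Among the HOX genes, the difference between the organs varied with the cluster and the position in it. HOX genes lie in 4 clusters, and the number in the name gives the paralog group, with high numbers acting toward the tail end of the embryo. Of 25 HOX genes found by name, 22 were compared, 13 were higher in the uterus and 0 in the ovary. The median difference was -1.70 for the 4 compared genes of groups up to 4, -2.78 for the 8 of groups 5 to 8 and -4.66 for the 10 of group 9 and over.

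In the HOXA cluster, on chromosome 4 between 69297275 and 69389905, the difference widened from HOXA3 (-2.38) and HOXA5 (-3.74) through HOXA9 (-4.95) and HOXA10 (-5.80) to HOXA11 (-6.37). HOXA7 broke the order at -1.81, with 3.16 RPKM in the uterus and 0.756 RPKM in the ovary. HOXA13 was at 0.017 RPKM in the uterus and at 0 RPKM in the ovary, and at 0.679 RPKM in endometrium. The HOXB genes found were uterine throughout, from HOXB4 (-2.50) to HOXB5 (-4.53), HOXB7 (-4.25) and HOXB9 (-4.38).

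The HOXC and HOXD clusters changed between neighbouring genes. On chromosome 2, HOXD9 was present in both organs, at 16.8 RPKM in the ovary and 31.8 RPKM in the uterus, while the adjacent HOXD10 differed by -5.36. HOXD3 was also shared, at 7.90 and 10.4 RPKM. On chromosome 5, HOXC5, HOXC6, HOXC8 and HOXC9 had the higher level in the ovary, at differences of 1.02, 1.53, 1.18 and 1.31, and the next gene, HOXC10, was higher in the uterus at -2.44. For HOXC5 the 86 ovarian and 63 uterine reads gave a ratio of 1.32 (0.94 to 1.85), which includes 1. HOXC6 reached 28.8 RPKM in the ovary, its highest PRE mean, against 9.87 RPKM in the uterus and 2.47 RPKM in endometrium. HOXC11 was at 0.428 RPKM in the uterus and 0.030 RPKM in the ovary. The HOX genes with more than 4 RPKM in the ovary were HOXC6, HOXC8, HOXC9, HOXD3 and HOXD9. The list of anterior HOX genes gave 7 of 12 higher in the uterus, 0 in the ovary and a median of -2.44.

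**Figure D3:**
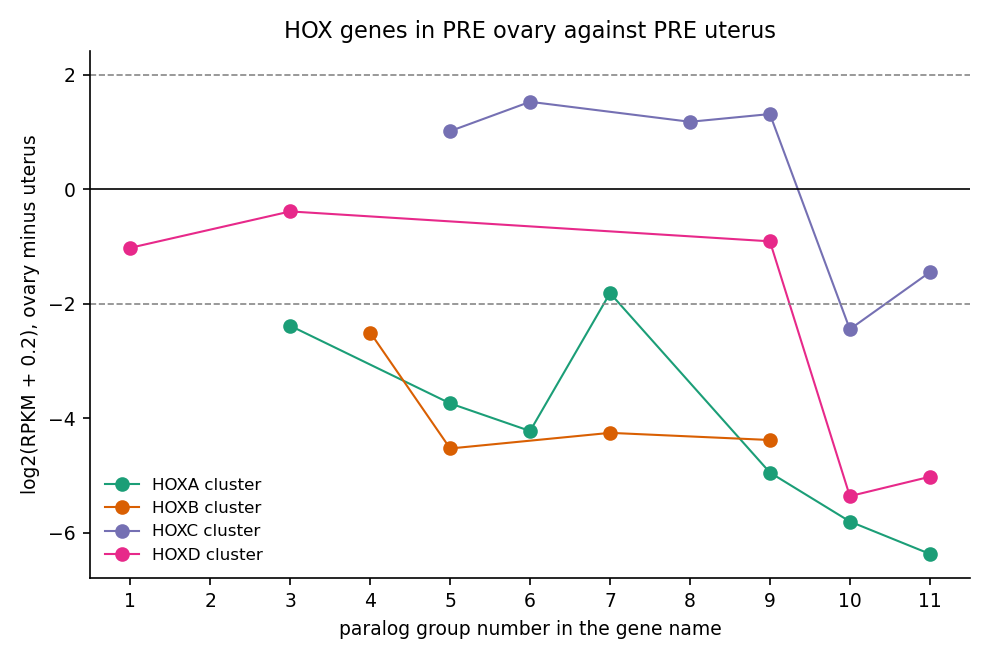
Difference of each of the 22 compared HOX genes, as log2(RPKM + 0.2) in PRE ovary minus PRE uterus, against the paralog group number in its name, with points of a cluster joined by a line. Dashed lines mark the 4-fold threshold, HOXC5 to HOXC9 lie above 0, and HOXA9 (-4.95), HOXA10, HOXA11, HOXD10 and HOXD11 lie lowest.

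DLX5 and DLX6, neighbouring homeobox genes of chromosome 4, had 19.4 and 13.7 RPKM in the uterus and 0.090 and 0.036 RPKM in the ovary. In mouse, both act in the uterine epithelium. Their endometrial levels were 23.6 and 15.3 RPKM, above those of the whole uterus. RORB, an orphan nuclear receptor chosen after its value was seen, had 17.5 and 0.314 RPKM.

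Epithelial genes were nearly uniformly uterine. Of 25 compared junction, keratin and epithelial factor genes, 17 were higher in the uterus and 0 in the ovary, with a median of -2.51, and 1 of the 25 had the higher level in the ovary. EPCAM, a surface protein of epithelia, had 50.5 RPKM in the uterus and 5.43 RPKM in the ovary. CLDN10, a tight junction protein, had 41.9 and 0.751 RPKM, and the protease ST14 had 18.8 and 1.11 RPKM. FOXA2, which marks uterine glands and is needed for them in mouse, had 5.58 and 0.308 RPKM. Among the 8 within 4-fold were KRT19, which mesothelium and ovarian surface cells also express, with 25.5 and 21.6 RPKM, and KRT7, with 12.98 and 6.09 RPKM. KRT14, at 0.070 RPKM in the uterus and 0.230 RPKM in the ovary, was the 1 with the ovarian order.

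Genes of the ovarian surface epithelium and of mesothelium leaned the other way. Of 10 compared, 3 were higher in the ovary (LHX9, LRRN4 and UPK1B) and 0 in the uterus, and the median was 1.64. UPK1B had 32.5 RPKM in the ovary, 7.35 RPKM in the uterus and 22.1 RPKM in endometrium. LRRN4 had 1.26 RPKM in the ovary and was listed at 0 in the uterus.

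The list of secreted proteins and other products of tract epithelium split in both directions, with 10 of 25 higher in the uterus, 3 higher in the ovary and a median of -0.83. After GRP and S100G the uterine members were DMBT1 (9.67 against 0.253 RPKM), PIP (3.29 and 0.046 RPKM), TFF3 (8.02 and 0.526 RPKM), the mucins MUC1 (16.9 and 1.37 RPKM) and MUC4 (3.87 and 0.221 RPKM), PIGR (7.14 and 0.916 RPKM), WFDC2 (9.68 and 1.88 RPKM) and SCGB3A2 (1.63 and 0.198 RPKM). These are products of mucosal surfaces. SERPINA14, the uterine milk protein of ruminants, was low in PRE uterus at 0.203 RPKM and reached 34.9 RPKM in PRE endometrium, against 1.16 RPKM in the ovary. PAEP was listed at 0 in both organs.

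The ovarian members of that list were OVGP1, GPX3 and MSMB. OVGP1, the glycoprotein that the oviduct secretes, stood at 59.0 RPKM in PRE ovary, 2.20 RPKM in PRE uterus and 1.48 RPKM in POST ovary. The 18 compared genes of motile cilia, which the oviduct also carries, were between 0.494 and 33.7 RPKM in PRE ovary, summing to 81.1 RPKM, and summed to 177 RPKM in PRE uterus. FOXJ1, the factor that defines multiciliated cells, was at 9.64 RPKM in PRE ovary and 0.225 RPKM in POST ovary. None of the cilia genes was higher in the ovary by the rule, 1 (CCNO) was higher in the uterus, and the median was -1.17. The shares called among all compared genes were 3.03% and 3.08%, so these counts are no result about the cilia list. The part of other tract tissue in the PRE ovary means was not tested. GPX3, a secreted peroxidase, had 76.8 and 2.52 RPKM, and MSMB had 1.43 and 0 RPKM.

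Smooth muscle genes were abundant in both organs and higher in the uterus for most. Of 23 compared, 5 were higher in the uterus by the rule, 1 in the ovary, 3 in all had the higher level in the ovary (CALD1, NOTCH3 and HSPB7, with CALD1 turned by read shares), and the median was -1.20. DES, the intermediate filament of muscle, had 539 RPKM in the uterus and 48.4 RPKM in the ovary, a read ratio of 11.3 (11.1 to 11.5). CNN1 (447 and 80.8 RPKM), ACTG2 (812 and 144 RPKM), KCNMB1 (45.2 and 3.44 RPKM) and HSPB8 (68.2 and 14.9 RPKM) were the others. The broader contractile genes lay under the threshold, with ACTA2 at 1483 and 570 RPKM, TAGLN at 1501 and 610 RPKM and MYH11 at 601 and 211 RPKM. The summed level of the list was 3474 RPKM in the ovary, 8816 RPKM in the uterus and 6546 RPKM in endometrium. KCNMA1, the channel whose subunit KCNMB1 is, had 31.8 RPKM in the uterus and 1.095 RPKM in the ovary and was chosen after its value was seen. HSPB7, at 14.1 RPKM in the ovary and 0.887 RPKM in the uterus, was the ovarian exception. TES, a focal adhesion protein also chosen after its value was seen, had 306 RPKM in the uterus and 9.89 RPKM in the ovary.

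Most matrix genes lay within 4-fold. Of 22 fibroblast and matrix genes, 4 were higher in the ovary (THBS2, VIM, LUM and TIMP1) and 0 in the uterus. The shares of all compared genes were 3.03% and 3.08%. The 15 genes within 2-fold were a smaller share than the 80.0% of all compared genes, and the median was 0.37. VIM, vimentin, reached 1559 RPKM in the ovary and 257 RPKM in the uterus. The fibrillar collagens COL1A1 (1465 and 818 RPKM), COL1A2 (1107 and 880 RPKM) and COL3A1 (1039 and 1727 RPKM) were within 2-fold.

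Basement membrane genes differed by chain. Of 19 compared, 4 were higher in the ovary, 2 in the uterus, and the median was 0.64. Type IV collagen is built from chains that assemble in fixed combinations. COL4A3 (18.2 and 0.732 RPKM) and COL4A4 (34.4 and 1.54 RPKM), which lie side by side in the genome, were ovarian. COL4A5 (16.03 and 122 RPKM) and COL4A6 (7.04 and 50.7 RPKM), which also form a pair, were uterine, and are known from smooth muscle basement membranes. COL4A5 was not absent from the ovary, where its 16.03 RPKM stood near the 18.2 RPKM of COL4A3. COL4A1 (310 and 82.4 RPKM) and COL4A2 (178 and 80.4 RPKM), the chains found everywhere, lay within 4-fold. LAMA1, a laminin chain, had 72.9 and 3.41 RPKM, and NID1 had 39.8 and 9.14 RPKM.

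Most hormone receptors lay within 4-fold. Of 19 compared, FSHR, LHCGR and RXFP2 were higher in the ovary, 4 were higher in the uterus, 12 lay within 4-fold, and the median was 0.34. Among all compared genes 3.03% and 3.08% were called, so the called shares of this list were higher. ESR1, the estrogen receptor alpha, had 118 RPKM in the uterus and 8.69 RPKM in the ovary, with a read ratio of 12.9 (12.4 to 13.3). The oxytocin receptor OXTR had 18.2 and 1.01 RPKM. The prolactin receptor PRLR had 8.72 and 0.532 RPKM, and the progesterone receptor PGR had 32.6 and 5.94 RPKM. ESR2 and the membrane protein PGRMC1 (60.03 RPKM in the uterus and 86.3 RPKM in the ovary) were shared. RXFP2, the receptor of INSL3, had 1.57 RPKM in the ovary and 0.035 RPKM in the uterus.

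Among the inhibins, activins and bone morphogenetic proteins, 6 of 29 were higher in the ovary, 2 in the uterus, and the median was 0.81. Besides INHA, INHBA, INHBB and FST the ovarian genes were NOG (1.92 and 0.180 RPKM) and BMP6 (8.44 and 1.77 RPKM). The uterine genes were the antagonist CHRDL2, with 60.8 and 2.21 RPKM, and BMP7, with 6.13 and 0.879 RPKM. The antagonists thus stood on both sides, with FST and NOG in the ovary and CHRDL2 in the uterus.

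The Wnt list gave 2 of 20 higher in the ovary, 5 in the uterus and a median of -0.61. WNT4, which female gonad development needs, had 5.64 RPKM in the ovary and 0.214 RPKM in the uterus, and FRZB, a secreted antagonist, had 31.4 and 3.41 RPKM. RSPO1, which strengthens Wnt signals and is best known as an ovarian determinant in mouse and human, was uterine in these heifers, at 24.4 RPKM in the uterus and 0.730 RPKM in the ovary. RNF43, a target and brake of the pathway, had 6.57 and 0.190 RPKM. WNT2 (4.09 and 0.359 RPKM), WNT16 (1.98 and 0.224 RPKM) and LGR5 (2.16 and 0.115 RPKM) were the remaining uterine genes, and each was higher again in endometrium, at 14.1, 5.14 and 8.69 RPKM. RSPO3 was abundant in both organs at 118 and 84.0 RPKM.

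Most members of the retinoid and prostaglandin lists lay within 4-fold. For these and later lists, the shares called among all compared genes were 3.03% and 3.08%. In lists this short a single call is no result about the list. In the retinoid list, 4 of 13 were higher in the ovary, above the share of all compared genes, 1 in the uterus, and the median was 0.04. STRA6, the transporter of retinol, had 109 and 11.8 RPKM, RARRES2 359 and 27.7 RPKM, and DHRS3 98.8 and 23.1 RPKM. CRABP1, which binds retinoic acid in the cytoplasm, was the uterine one at 52.6 against 2.52 RPKM. In the prostaglandin list, PTGDS was higher in the ovary (233 and 46.3 RPKM), the receptor PTGER3 in the uterus (25.5 and 0.444 RPKM), and the other 11 of 13 lay within 4-fold around a median of 0.11.

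Of 16 insulin-like growth factor genes, 2 were higher in the ovary, IGFBP2 (47.4 and 1.92 RPKM) and STC1 (44.2 and 3.23 RPKM), 0 in the uterus, and the median was 0.94. IGF2 had 237 and 88.2 RPKM and IGF1 5.48 and 10.99 RPKM. Of 9 Hedgehog genes, GAS1 was called (52.2 and 9.48 RPKM, ovary), and the median was 0.27. The fibroblast and epidermal growth factor list gave 0 calls in either direction among 15 genes and a median of -0.07.

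Of 12 ovulation and cumulus matrix genes, 6 were higher in the ovary and 2 in the uterus, with a median of 1.87. PTX3 (6.07 and 0.177 RPKM), RUNX1 (3.96 and 0.366 RPKM), VCAN (63.0 and 10.6 RPKM) and RUNX2 (5.93 and 1.33 RPKM) were among the ovarian genes, as was LHCGR. ADAMTS5 (12.2 RPKM in the uterus against 1.64 RPKM in the ovary) and PGR were the uterine ones. RUNX2 stood just inside the 4-fold threshold, as did ADAMTS17 (5.89 and 1.32 RPKM), and DPP6 (2.89 and 0.573 RPKM) just outside. On the uterine side FZD2 (14.2 against 3.39 RPKM) was just inside and NTF4 (1.93 against 0.333 RPKM) just outside. Cell cycle genes gave 0 calls among 22, but 21 of the 22 had the higher level in the ovary, with a median of 1.02. Of all 15634 compared genes, 8634 had the higher level in the ovary. MCM6 (21.9 and 21.1 RPKM) lost that order after median centring. MKI67 had 13.6 and 5.94 RPKM, and CCNB1, the exception, had 17.7 and 50.3 RPKM.

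**Figure D4:**
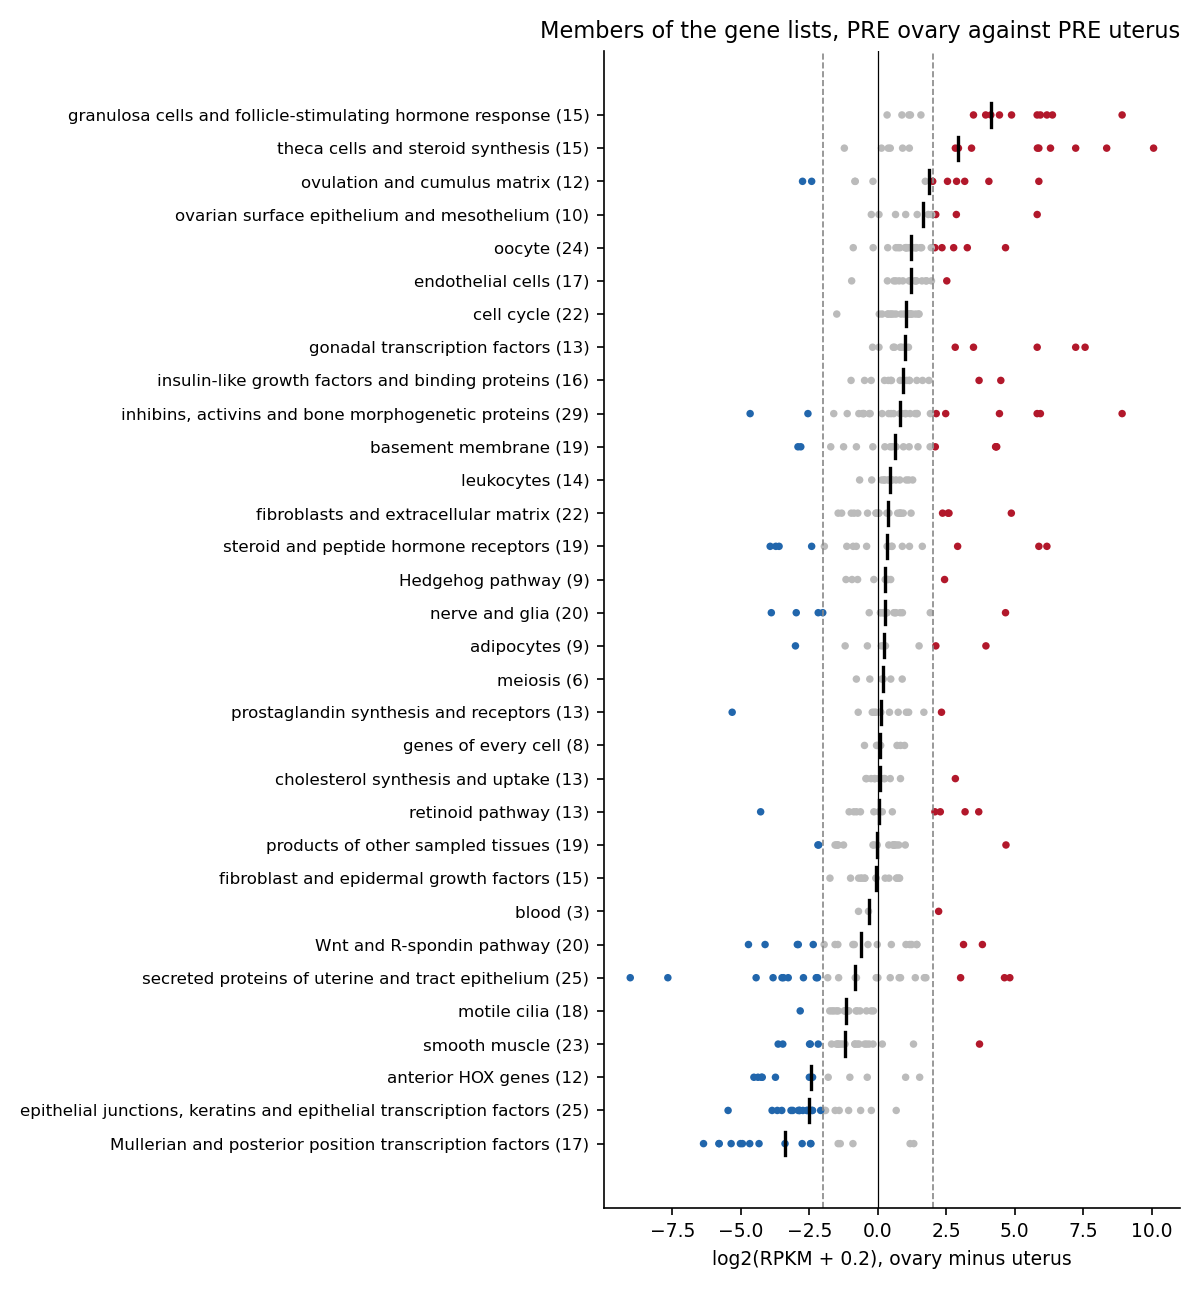
Difference of every compared member of the 32 gene lists, as log2(RPKM + 0.2) in PRE ovary minus PRE uterus, with a black bar at the median of each list and the number of compared members in brackets. Red points are called higher in the ovary, blue points higher in the uterus and grey points lie within 4-fold, which the dashed lines mark. The lists run from granulosa cells (median 4.13) down to Mullerian and posterior transcription factors (median -3.39).

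Markers of other cell types were measured in both organs. Of 17 endothelial genes, 1 was higher in the ovary (CLDN5, 33.9 and 5.76 RPKM), and 16 of the 17 had the higher level there, with a median of 1.20. Among all compared genes, 8634 of 15634 had the higher level in the ovary. The summed level of the list was 268 RPKM in the ovary and 110 RPKM in the uterus. Leukocyte genes gave 0 calls among 14 (median 0.46, summed level 113 and 63.7 RPKM), and PTPRC, which all leukocytes carry, had 7.18 and 6.01 RPKM. Of 9 adipocyte genes, PPARG and CFD were higher in the ovary and PLIN4 in the uterus (median 0.21), while the defining ADIPOQ was low in both at 2.97 and 3.93 RPKM. PPARG, a nuclear receptor, had 19.8 and 1.098 RPKM.

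Of 20 nerve and glia genes, UCHL1 was higher in the ovary, and SNAP25, CHGA, NPY and STMN2 in the uterus, with a median of 0.26. STMN2 had 9.34 RPKM in the uterus and 0.443 RPKM in the ovary. The glial marker S100B had 24.3 RPKM in the ovary and 13.7 RPKM in the uterus. Of 3 compared blood genes, HBA was higher in the ovary (1.34 and 0.130 RPKM), with a median of -0.34. A second gene model of HBA, with 1.18 and 0.190 RPKM, was not called, and reads could be split between the copies. The 8 genes of every cell gave 0 calls and a median of 0.09, with GAPDH at 763 and 430 RPKM and B2M at 733 and 758 RPKM.

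Products of other sampled tissues gave 1 of 19 higher in the ovary, APOA1 at 314 and 12.1 RPKM, and 2 higher in the uterus, LHB and GFAP, with a median of -0.02. APOA1, the main protein of high-density lipoprotein, had its highest PRE mean in the ovary and not in the liver. GFAP, a marker of astrocytes, had 6.45 RPKM in the uterus and 1.29 RPKM in the ovary. LHB had 14.7 and 3.08 RPKM. The liver products ALB (32.8 RPKM in the uterus and 10.96 RPKM in the ovary) and FGA (5.51 and 1.80 RPKM) lay within 4-fold. What part tissue carried over between samples had in these values was not tested.

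Immediate early genes, chosen after their values were seen, stood higher in the ovary in part. FOS had 124 RPKM in the ovary, 6.20 RPKM in the uterus and 18.5 RPKM in endometrium, NR4A1 had 63.7, 2.26 and 3.09 RPKM, and JUNB had 25.6, 4.33 and 9.65 RPKM. JUN, at 86.6 and 58.6 RPKM, lay within 2-fold.

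The place of the called genes among the 8 PRE tissues was described next. Of the 473 ovarian genes, 270 (57.1%) had their highest PRE mean in the ovary and 77 in the hypothalamus. Of the 481 uterine genes, 288 (59.9%) had it in the uterus or endometrium. For all compared genes the shares were 17.9% and 24.4%, but the called genes were chosen for a high mean in the same organ, so the higher shares follow in part from the choice and are a description. A level 4-fold above every other PRE tissue was reached by 106 of the ovarian genes, and by 120 of the uterine genes when endometrium was not counted as another tissue. Shannon entropy over the tissues, which is low for a gene found in few of them, was under 1 for 25 ovarian genes and 2 uterine genes. Low values were found for KRT2 (0.379), FSHR (0.418), SERPINB2 (0.589), CYP17A1 (0.598) and CYP19A1 (0.657). For uterine genes such as HOXA11 (1.501) and PRSS16 (1.42) the endometrium counted as a further tissue, which raises the value.

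Most of the uterine genes had a like level in endometrium. Among the 481 uterine genes, 416 lay within 2-fold of their uterus level in endometrium, 34 were at least 2-fold above it and 31 at least 2-fold below it. This was not particular to the uterine genes. Of the 473 ovarian genes, 425 also lay within 2-fold of their uterus level in endometrium, and 122 were under 0.2 RPKM in endometrium. SERPINA14 was not among these genes, but GRP, MUC4, DMBT1, WNT2 and LGR5 were all at least 2-fold higher in endometrium than in the uterus. CCL11, a chemokine (14.3 RPKM in the uterus and 5.97 RPKM in endometrium) and PRLR (8.72 and 2.36 RPKM) had the reverse order. The smooth muscle genes stayed high in endometrium, with DES at 408 RPKM and ACTG2 at 663 RPKM, so muscle markers were present in the endometrium means too.

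The same genes were then read in the POST heifers, which are other animals. Of the 473 genes higher in PRE ovary, 461 had the same direction and 318 (67.2%) again reached 4-fold in POST, beside 4.76% of all genes compared in POST. Of the 481 genes higher in PRE uterus, 430 had the same direction and 263 (54.7%) again reached 4-fold, beside 3.81%. Leaving out genes at 5 RPKM or more in POST pituitary gave 226 of 331 (68.3%) and 219 of 368 (59.5%). The share of all genes compared in POST was not computed after this exclusion, so these percentages have no matching background.

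**Figure D5:**
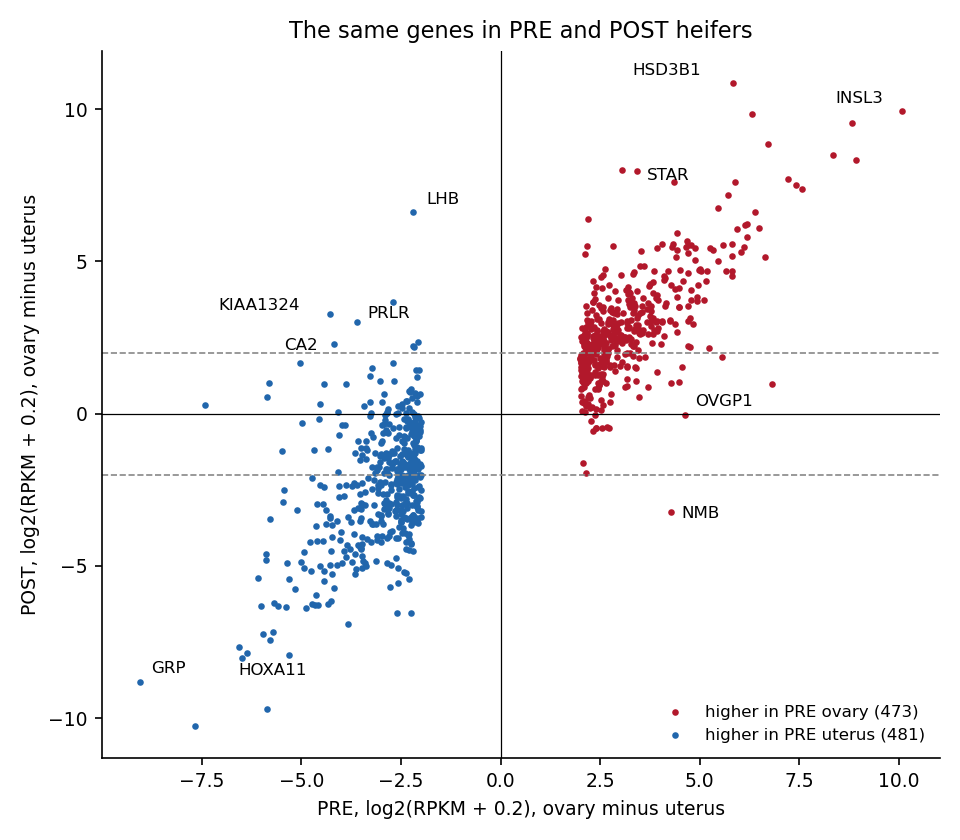
Difference of each of the 954 called genes in PRE heifers (horizontal axis) and POST heifers (vertical axis), both as log2(RPKM + 0.2) in ovary minus uterus, with dashed lines at 4-fold in POST. Red points were higher in PRE ovary and blue points higher in PRE uterus, INSL3 and GRP keep their places, and NMB, LHB, KIAA1324 and PRLR lie on the opposite side in POST.

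The early steroid genes were farther apart in POST. HSD3B1 stood at 797 RPKM and STAR at 652 RPKM in POST ovary, against 0.229 and 2.43 RPKM in POST uterus, and CYP11A1 at 660 against 0.526 RPKM. The POST ovary contained a corpus luteum, which makes progesterone. INSL3 (664 against 0.479 RPKM) and INHA (495 against 1.36 RPKM) kept levels near those of PRE. Uterine HOX genes also kept their order, with HOXA11 at 49.2 RPKM in POST uterus and 0.015 RPKM in POST ovary.

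Of the ovarian genes, 12 had the opposite sign in POST and 1, NMB, was 4-fold the other way, at 63.1 RPKM in POST ovary and 589 RPKM in POST uterus. OVGP1 was level in POST, at 1.48 and 1.53 RPKM. Of the uterine genes, 49 had the opposite sign, 17 of them by at least 2-fold and 8 by at least 4-fold. LHB (445 RPKM), CHGA (45.3 RPKM) and KIAA1324 (24.6 RPKM) were among these genes in POST ovary, and each had its highest PRE mean in the pituitary. PRLR, at 4.14 RPKM in POST ovary and 0.337 RPKM in POST uterus, had its highest PRE mean in the liver.

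Several genes called for PRE uterus were low in POST uterus. CA2, carbonic anhydrase II, had 117 RPKM in PRE uterus and 1.78 RPKM in POST uterus, KIF12 had 18.3 and 0.282 RPKM, and DMBT1 had 9.67 and 0.051 RPKM. The gene ENSBTAG00000026812, with no symbol, on chromosome 2 at 89783382 to 89858016, had 50.8 RPKM in PRE uterus, 52.6 RPKM in PRE endometrium and 0.070 RPKM in POST uterus. On the ovarian side ENSBTAG00000024849, on chromosome 3 at 8942579 to 8953702, had 31.1 RPKM in PRE ovary and 0.413 RPKM in POST ovary. PGR was lower in POST uterus too, at 9.66 RPKM, so that it lay within 2-fold of the POST ovary (4.87 RPKM). For these genes the difference between the organs belonged to the PRE heifers in these means, and it was not tested. PENK (17.7 and 6.97 RPKM in PRE ovary and uterus) and TDGF1 (1.26 and 0.779 RPKM) had no such PRE difference, while POST uterus held 770 and 273 RPKM.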

How the data were processed

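RNA of heifer tissues was sequenced from TruSeq libraries as single reads on a HiSeq instrument, apart from a few hypothalamus samples with shorter reads from an older instrument, which may enter the hypothalamus means used in the ranking of tissues and the entropy. The authors mapped reads with CLC Genomics Workbench to UMD3.1 with Ensembl gene identifiers and deposited group means of unique reads per gene and group means of RPKM, which scale reads to exon length and mapped reads. Whether counting used strand is not given in the sources used here, so overlapping genes, and close copies, are uncertain. Here the RPKM means of PRE ovary and PRE uterus were compared with Python 3.11.15, numpy 2.4.6, pandas 2.3.3 and scipy 1.17.1. A gene was compared at 0.2 RPKM or more in either organ and called at 4-fold after 0.2 was added. The study states that values of each sample were made public. The tables used here hold group means, which allow no test, values of single samples were not used here, and the planned search of promoters for motifs was not run. The fold rule, the intervals and the trimmed mean were tested on simulated data. For the fold rule, the spread between libraries was assumed, and the changes were set well above 4-fold in genes well above the filter. That simulation does not show whether true differences near 4-fold or at low levels are found.

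Symbols came from the deposited names (11519 genes), a gene table of the study (963) and entry names, paired by hand or by an equal RefSeq symbol on the same chromosome (1559). The other 10575 genes had no symbol, so lists are incomplete. The members and the 32 lists were chosen with earlier results of these data known. The text names the 15 largest differences with a symbol at 5 RPKM or more per direction, the most abundant genes, members of 6 lists, the extreme or most abundant members of the others, and genes the study names. Further genes were chosen after their values were seen. Alternatives were the added amount, the filters, the fold, read shares (CPM), centring, the trimmed mean and leaving out the mitochondrial genome. The POST comparison without genes at 5 RPKM or more in POST pituitary was chosen after the data were seen. Some genes are not reported here.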

Additional observations from a re-analysis of the deposited data

How the results depend on the processing

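No gene called higher in one organ was called higher in the other under any of the 11 alternatives, and no difference of the 30 leading named genes changed sign. This was largely fixed in advance. A change of filter, fold or added amount cannot turn a difference, and the 30 genes were chosen for the largest ones. Of 330 values of these genes under the alternatives, 39 moved by over 1. With 1 added, 269 genes higher in ovary and 220 genes higher in uterus were called. At 2-fold the numbers were 1627 and 1498 (146 and 126 list members, beside 64 and 75 at 4-fold), and at 8-fold 200 and 173 (39 and 39 list members). The other alternatives gave 438 to 667 genes higher in ovary and 450 to 681 genes higher in uterus, beside 473 and 481. With read shares (CPM) there were 449 and 606, of which 388 and 445 were also called by RPKM, the median of all compared genes moved from 0.07 to -0.05, and the PLA2G1B log2 ovary minus uterus difference was 1.34. Of 704 list counts under the alternatives, 67 moved, 17 of them at settings other than the fold. No paired analysis was possible because the tables used here hold group means, although the same heifers gave both organs. Leaving out a heifer was not possible for the same reason.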
